A study of Mus musculus with 20 samples.

Results

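The signalling lymphocytic activation molecule (SLAM) family is a group of immunoglobulin-type surface receptors of blood cells, and its transcripts were followed here across cultured mouse stem and progenitor cells that differed in Runx2. The 8 genes were chosen by name (Slamf1, Cd48, Ly9, Cd84, Slamf6, Slamf7, Slamf8 and Slamf9), and all 8 were found among the 49997 genes of each count table. RNA came from cultured bone marrow cells of 2 sorts. HSC were sorted as positive for CD201, CD150, cKit and Sca1 and negative for lineage markers, and HPC as positive for cKit and Sca1 and negative for lineage markers, CD201 and CD150. Each sort had a group homozygous for a Runx2 knockout (hom), a heterozygous group (het) and a wild-type group (WT), with 3 libraries per group and 18 in all.

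The series describes cells from Runx2-flox mice and cells with CRISPR-mediated knockout. Which of them gave a library, the age of the mice, and whether replicates were separate animals or cultures are not given in the sources used here, so p-values reflect only how libraries of a group vary, and that variation may be technical. CD150 is the product of Slamf1, so a difference in Slamf1 between HSC and HPC cannot be told apart from the gate. The other members were not used for sorting.

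Most SLAM receptors bind another copy of themselves on a neighbouring cell. CD48, which is anchored in the membrane by a lipid and has no cytoplasmic part, instead binds CD244 and, in mice, CD2. The tails of CD150, Ly9, CD84, CD244, Ly108 (the product of Slamf6) and CRACC (the product of Slamf7) carry tyrosine motifs that recruit the small adaptors SAP (Sh2d1a), EAT-2 (Sh2d1b1) or both, through which Src-family kinases or phosphatases are engaged. The products of Slamf8 and Slamf9 have short tails without such motifs. In fresh mouse marrow, stem cells are commonly isolated as CD150-positive and CD48-negative, while CD48 marks progenitors and most mature leukocytes. Runx2 codes for one of the RUNX proteins, transcription factors of bone and blood.

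The libraries held 16663497 to 27061457 counts assigned to genes. Levels are given as CPM, counts scaled to a common library size. A level of 3 counts, under which a transcript may be missed by counting error alone, equals 0.103 to 0.191 CPM. Runx2 had 25.4, 27.9 and 24.6 CPM in HSC hom, 84.0, 89.4 and 81.9 CPM in HSC het and 119, 125 and 122 CPM in HSC WT. In HPC it had 23.4, 22.4 and 24.6 CPM in hom, 105, 108 and 99.2 CPM in het and 121, 128 and 128 CPM in WT, so that Runx2 followed the labels in every library. All 9 HSC libraries held the Y-linked transcript Ddx3y (2181 to 3831 counts) and all 9 HPC libraries held 0 counts of it, so cell sort and donor sex cannot be told apart. Procr, which encodes CD201, had 35.2 to 62.4 CPM in HSC and 4.78 to 7.66 CPM in HPC. Within HSC, Procr had 35.2 to 62.0 CPM in hom, 62.1 to 62.4 CPM in het and 39.9 to 53.6 CPM in WT. Het against WT was not called in the edgeR fit reported (adjusted p = 0.285). It was called by edgeR without the filter on low counts (adjusted p = 0.000718) and with only the 2 groups in the fit (adjusted p = 0.0222). Kit had 412 to 599 CPM in all libraries. Ly6a, which encodes Sca1, is listed at 0 counts in all 18 libraries although the cells were sorted as Sca1-positive. The reason was not established, so a gene listed at exactly 0 in these tables is not shown to be unexpressed.

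The bases before the start of transcription are shown for 3 members that changed in HPC hom against WT, Cd48, Cd84 and Slamf1. They were picked for that, so a motif in them is not set against their direction, and Ly9, which changed too, has no window here. The sequences are from RefSeq (GRCm38.p6, the assembly of mm10), read 5′ to 3′ on the gene's own strand, which is the plus strand for all 3, and cover 250 bases. Capitals mark TGTGGT, a core of the sequence that RUNX proteins bind. The Cd48 window is chr1:171681742-171681991, the Cd84 window chr1:171839447-171839696 and the Slamf1 window chr1:171766882-171767131.
Cd48: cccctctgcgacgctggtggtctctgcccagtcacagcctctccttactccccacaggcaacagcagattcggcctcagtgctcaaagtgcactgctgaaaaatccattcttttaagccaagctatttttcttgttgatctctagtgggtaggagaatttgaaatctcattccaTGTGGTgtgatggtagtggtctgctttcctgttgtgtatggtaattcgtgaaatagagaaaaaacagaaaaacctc
Cd84: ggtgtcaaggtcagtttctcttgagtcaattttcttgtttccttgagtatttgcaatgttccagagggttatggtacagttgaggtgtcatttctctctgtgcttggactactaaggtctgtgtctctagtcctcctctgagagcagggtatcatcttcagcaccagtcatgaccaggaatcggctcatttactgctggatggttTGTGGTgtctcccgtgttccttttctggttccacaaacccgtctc
Slamf1: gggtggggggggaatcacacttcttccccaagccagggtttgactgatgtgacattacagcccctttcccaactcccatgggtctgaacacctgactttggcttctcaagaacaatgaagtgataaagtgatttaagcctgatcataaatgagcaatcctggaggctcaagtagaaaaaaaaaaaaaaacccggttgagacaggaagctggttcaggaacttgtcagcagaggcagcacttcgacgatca
TGTGGT and TGCGGT were searched on both strands, and they do not overlap each other. Of the 7 members with a sequence there (all but Ly9), Cd48 and Cd84 each held 1 TGTGGT, beginning 76 and 45 bases before the start, and the other 5 held neither motif. Of all 32851 promoter windows of the same length, 14.05% held TGTGGT and 18.59% held either motif. A match is a description of letters and not a site of binding. The count annotation also holds an earlier start for Cd48 (171681245), Slamf7 (171653037, minus strand), Slamf8 (172590873, minus strand) and Slamf9 (172458569). The bases before those earlier starts were not searched. The 2 CUT&Tag samples of the series, for RUNX2 and H3K4me3, were not analysed here.

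Cd48 was the most abundant SLAM receptor transcript in every one of the 18 libraries, including those of the CD150-positive stem cell gate. It made up 47.2% to 62.2% of the counts of the family. Counted per kilobase of exon, so that genes can be compared with each other, Cd48 averaged 118 CPM per kb in HSC hom, 95.6 in HSC het and 95.1 in HSC WT. In HPC it averaged 135 CPM per kb in hom, 120.0 in het and 105 in WT. The next receptor by level lay between 15.6 CPM per kb (Ly9 in HSC hom) and 26.4 CPM per kb (Cd84 in HPC hom) in the hom groups, and no library of Cd48 overlapped it.

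Below Cd48 the order within the 8 chosen genes differed among groups. Cd244a, which encodes the SLAM receptor CD244, is not one of the 8 and is left out of this order. It averaged 7.83 CPM per kb in HSC WT and 14.4 in HPC WT, where it stood above Ly9. In HSC WT, Cd84 averaged 11.6 CPM per kb, Ly9 9.48 and Slamf1 5.30, and the 3 libraries of each gene did not overlap those of the next. In HSC hom the order was Ly9 (15.6 CPM per kb), Cd84 (12.5) and Slamf1 (4.73), again without overlap, so Ly9 stood above Cd84 in HSC hom and below it in HSC het and HSC WT. In HPC the order was Cd84, then Ly9, in all 3 genotypes, at 26.4 and 12.98 CPM per kb in hom, 25.1 and 11.7 in het and 19.5 and 9.22 in WT. Slamf9 followed at 2.49 CPM per kb in HPC hom, 1.42 in HPC het and 2.98 in HPC WT, and Slamf1 at 1.85 in HPC hom, 0.998 in HPC het and 2.99 in HPC WT. Slamf9 and Slamf1 libraries overlapped in HPC hom and HPC WT, and those of Slamf9 lay above those of Slamf1 in HPC het. Slamf7 was lower, at 0.196 to 0.214 CPM per kb in the HSC groups and 0.372 to 0.705 in the HPC groups.

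Slamf6 and Slamf8 were at or near the counting floor. Slamf6, whose product Ly108 is a receptor of T, B and NK cells, had 38 counts over the 18 libraries. These were 2 counts in HSC hom, 0 in HSC het, 14 in HSC WT, 9 in HPC hom, 9 in HPC het and 4 in HPC WT. Slamf8, a gene of macrophages and other myeloid cells, had 57 counts, of which 2, 1 and 10 fell in HSC hom, het and WT and 13, 15 and 16 in HPC hom, het and WT. Neither gene passed the filter on low counts in any fit, and Slamf9 did not pass it in the HSC fit. Without the filter the smallest adjusted p of Slamf6 or Slamf8 for a genotype comparison within a sort was 0.221 (Slamf6, HSC het against WT; unadjusted p = 0.0102; edgeR quasi-likelihood test).

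**Figure D1:**
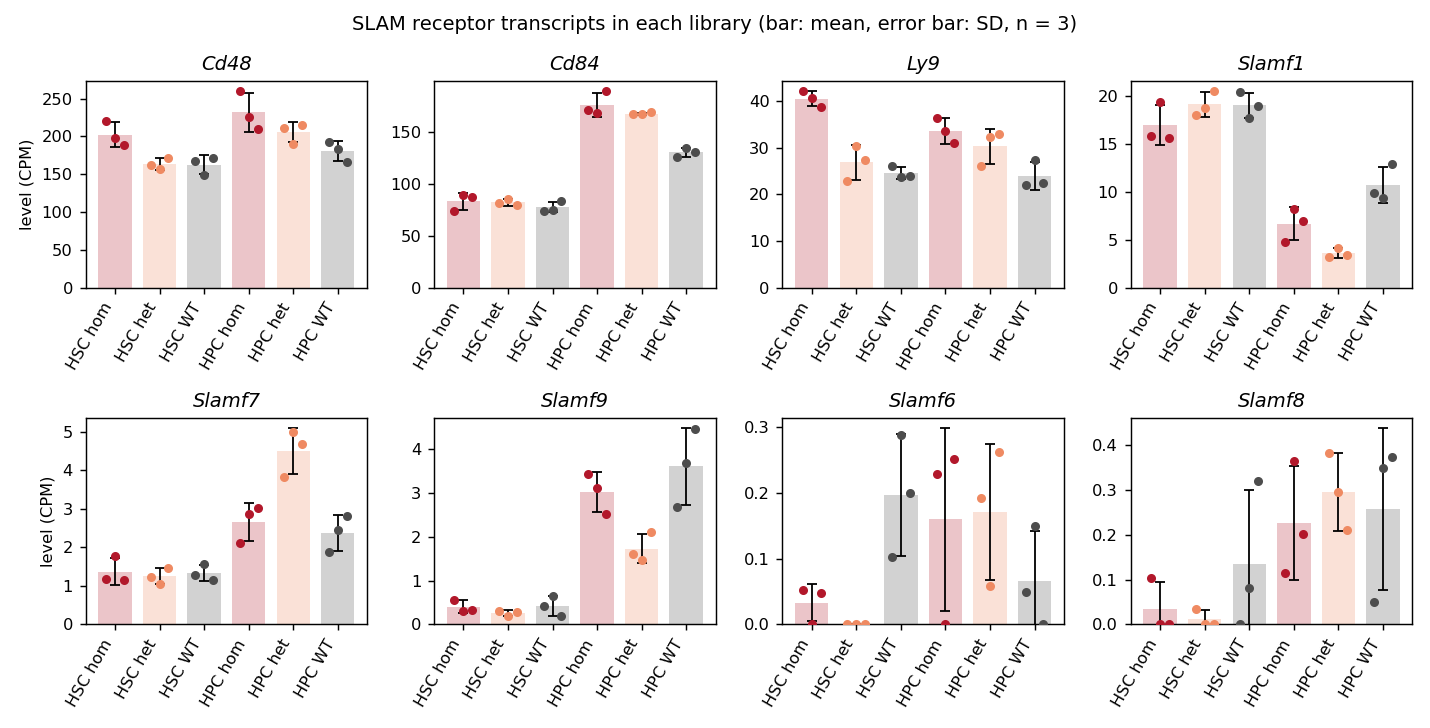
Level of each SLAM receptor transcript in CPM (vertical axes, from 0, a different scale per gene) in the 6 groups; points are libraries, bars means and error bars the SD of 3 libraries. Slamf1 was lowest in HPC het (3.19 to 4.19 CPM), Ly9 highest in HSC hom (38.8 to 42.1 CPM), and Slamf6 and Slamf8 stayed under 0.4 CPM.

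Among wild-type cells, the receptors differed in how they followed the 2 gates. Slamf1, the gate marker, had 20.4, 17.8 and 18.9 CPM in HSC WT and 9.84, 9.41 and 12.9 CPM in HPC WT. HSC thus held 1.78 times the HPC level, which is a description because CD150 was sorted on, and the CD150-negative gate still contained the transcript. Cd84, a self-binding receptor of myeloid cells, platelets and lymphocytes, was lower in HSC WT (74.2, 75.2 and 83.6 CPM) than in HPC WT (126, 135 and 130.4 CPM). Its log2 difference was -0.75 ± 0.07 (SE; edgeR quasi-likelihood test, adjusted p = 1.18e-08).

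Slamf7, a receptor of NK, plasma and myeloid cells, was also lower in HSC WT (1.28, 1.56 and 1.16 CPM) than in HPC WT (1.89, 2.44 and 2.81 CPM), with a log2 difference of -0.83 ± 0.26 (SE; edgeR adjusted p = 0.0101), and adjusted p = 0.0527 without HPC WT replicate 3. Cd48 did not pass the test between these groups (162.7 ± 12.3 CPM in HSC WT and 180.4 ± 13.5 in HPC WT; SD, n = 3; log2 -0.15 ± 0.08, SE; edgeR adjusted p = 0.137). Neither did Ly9, at 24.6 ± 1.27 CPM in HSC WT and 23.9 ± 2.95 CPM in HPC WT (SD, n = 3). Slamf9 had 0.409, 0.657 and 0.200 CPM in HSC WT and 2.68, 3.69 and 4.45 CPM in HPC WT, a mean 8.54 times higher in HPC WT. It passed the filter on low counts through the HPC libraries alone, so its difference (log2 -3.08 ± 0.36, SE) is given as a description. Of all 15431 genes tested, 54.9% were called in this comparison (27.7% higher and 27.2% lower), a background so broad that calls of single members say little about the family.

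In homozygous HSC, Ly9 and Cd48 transcripts rose relative to WT, while Slamf1 did not pass the test. Ly9, whose product CD229 is a self-binding receptor of T, B and other lymphoid cells, had 42.1, 40.7 and 38.8 CPM in HSC hom, 22.8, 30.3 and 27.5 CPM in HSC het and 26.0, 23.8 and 23.9 CPM in HSC WT. All 3 hom libraries lay above all 6 others. The log2 fold change of hom against WT was 0.75 ± 0.11 (SE; edgeR adjusted p = 0.00362), and the adjusted p was 0.000878 to 0.0378 with any 1 library left out. Against het the change was 0.61 ± 0.11 (edgeR adjusted p = 0.055), which missed the threshold.

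Cd48 had 221, 198 and 188 CPM in HSC hom, 162, 157 and 172 CPM in HSC het and 168, 149 and 172 CPM in HSC WT. Hom libraries lay above all het and WT libraries, with a log2 fold change against WT of 0.34 ± 0.08 (SE; edgeR adjusted p = 0.0425). This call was not stable. It was lost without HSC hom replicate 1 or 2 (edgeR adjusted p = 0.058 and 0.142). It was also lost without HSC WT replicate 1, 2 or 3 (edgeR adjusted p = 0.122, 0.205 and 0.0906). The log2 fold changes of these refits were 0.27 to 0.38.

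The other members of HSC hom did not pass. Slamf1 had 15.9, 19.4 and 15.6 CPM in HSC hom, 18.1, 18.8 and 20.6 CPM in HSC het and 20.4, 17.8 and 18.9 CPM in HSC WT, and the groups overlapped (log2 of hom against WT -0.14 ± 0.12, SE; edgeR adjusted p = 0.578). Cd84 had 74.1, 89.1 and 87.2 CPM in HSC hom and 74.2, 75.2 and 83.6 CPM in HSC WT (log2 0.13 ± 0.08; edgeR adjusted p = 0.426). Slamf7, with 23 to 42 counts per library in hom and WT, had a log2 change of 0.07 ± 0.33, a standard error that could hide a sizeable change. The 2 members called were both higher, out of 5 tested, beside 1.2% of all genes called higher and 2.01% called either way. The median log2 change of the 5 was 0.13, against 0.00 for all genes tested. In HSC het against WT edgeR called none of the 5, beside 0.0334% of all genes (0.0267% higher and 0.00668% lower). An unadjusted p under 0.05 was found for 2067 genes and for none of the 5 members, and DESeq2 called none of them. In HSC hom against het edgeR called none either, beside 0.0134% of all genes (0.00668% higher and 0.00668% lower; 1752 genes at an unadjusted p under 0.05), whereas DESeq2 called 2, Ly9 and Cd48.

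Marker genes of mature cells gave the following levels in HSC. Over all genes tested, 1.2% were called higher and 0.802% lower in HSC hom against WT. Summed over 10 monocyte and macrophage markers, hom libraries held 175 to 198 CPM, het libraries 195 to 208 CPM and WT libraries 189 to 208 CPM. Of the 7 markers tested, none was called higher and 1 lower in hom against WT. Summed neutrophil markers lay at 70.8 to 93.7 CPM in HSC hom, 62.9 to 71.4 CPM in HSC het and 63.9 to 77.2 CPM in HSC WT, with 0 of 5 tested called. Dendritic cell markers had 3 of 6 tested called lower in hom against WT and none higher (median log2 change -0.90), with sums of 28.7 to 37.4 CPM in HSC hom, 28.5 to 36.4 CPM in HSC het and 34.2 to 36.2 CPM in HSC WT. Erythroid markers had 1 of 3 tested called lower, and their sums were 136 to 153 CPM in HSC hom, 181 to 192 CPM in HSC het and 163 to 190 CPM in HSC WT, so that hom lay below WT without overlap.

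Lymphoid markers were low in HSC. The 10 T and NK cell markers summed to 26.4 to 33.2 CPM in HSC hom, 26.2 to 37.8 CPM in HSC het and 26.1 to 32.3 CPM in HSC WT, and 0 of 3 tested were called (median log2 change of hom against WT 0.41). Cd3e, Cd8a and Trac were at 0 counts in all 3 HSC groups, while Cd3d and Cd3g were at 0 in HSC WT but not in HSC hom or HSC het. The 8 B and plasma cell markers summed to 17.3 to 18.7 CPM in HSC hom, 19.1 to 21.6 CPM in HSC het and 16.8 to 21.2 CPM in HSC WT, with 0 of 2 tested called. Ms4a1, Pax5 and Ebf1 were at 0 in all 3 HSC groups, and Cd79a in HSC WT alone. None of the 6 mast cell and basophil markers and none of the 9 megakaryocyte markers tested was called in HSC hom against WT. The part of any of these markers in the changes of Ly9 and Cd48 in HSC hom was not tested.

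In homozygous HPC, Cd48, Ly9 and Cd84 rose and Slamf1 fell relative to WT. Cd84 had 172, 168 and 189.7 CPM in HPC hom, 167, 168 and 169 CPM in HPC het and 126, 135 and 130.4 CPM in HPC WT. All hom and het libraries lay above all WT libraries, and the log2 change of hom against WT was 0.44 ± 0.06 (SE; edgeR adjusted p = 7.08e-05). Ly9 had 36.4, 33.5 and 30.9 CPM in HPC hom and 22.0, 27.3 and 22.4 CPM in HPC WT, without overlap (log2 0.50 ± 0.10; edgeR adjusted p = 0.00374). Cd48 had 260.2, 226 and 209 CPM in HPC hom and 193, 183 and 166 CPM in HPC WT, also without overlap (log2 0.37 ± 0.08; edgeR adjusted p = 0.00474).

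Slamf1 moved the other way in HPC, and the heterozygous cells held the least. It had 4.79, 8.18 and 6.99 CPM in HPC hom, 3.19, 4.19 and 3.36 CPM in HPC het and 9.84, 9.41 and 12.9 CPM in HPC WT. The 3 groups did not overlap one another. Hom cells changed by log2 -0.68 ± 0.18 against WT (SE; edgeR adjusted p = 0.0179), a call lost without HPC hom replicate 1 (-0.50, adjusted p = 0.0832) or HPC WT replicate 3 (-0.52, adjusted p = 0.122). Het cells changed by log2 -1.58 ± 0.19 against WT (edgeR adjusted p = 1.62e-05; 4.85e-05 to 0.000414 with 1 library left out), and so kept 33.4% of the WT level. Hom cells stood above het cells by log2 0.90 ± 0.20 (edgeR adjusted p = 0.00819). The order of the genotypes for Slamf1 thus differed from that for Runx2, which was lowest in HPC hom. The sort marker Kit was also furthest from WT in HPC het, at 532, 489.96 and 533 CPM in hom, 597, 599 and 563 CPM in het and 412, 483 and 462 CPM in WT (log2 of het against WT 0.38 ± 0.07, SE; edgeR adjusted p = 0.000997).

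Slamf7 rose and Slamf9 fell in heterozygous HPC relative to WT. Slamf7 had 2.11, 2.86 and 3.02 CPM in HPC hom, 3.83, 5.01 and 4.67 CPM in HPC het and 1.89, 2.44 and 2.81 CPM in HPC WT. Het libraries lay above all others, by log2 0.92 ± 0.21 against WT (SE; edgeR adjusted p = 0.00591). Hom libraries overlapped WT (log2 0.17 ± 0.22; edgeR adjusted p = 0.725) and were lower than het by log2 -0.75 ± 0.21 (edgeR adjusted p = 0.0328). That last call was lost without HPC het replicate 2 or 3 or HPC hom replicate 1 or 2 (adjusted p = 0.0586 to 0.132).

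Slamf9, a gene of macrophages and plasmacytoid dendritic cells in mice, had 3.42, 3.13 and 2.51 CPM in HPC hom, 1.60, 1.47 and 2.10 CPM in HPC het and 2.68, 3.69 and 4.45 CPM in HPC WT. Het libraries lay below all others, at log2 -1.06 ± 0.25 against WT (SE; edgeR adjusted p = 0.00595). Hom against WT did not pass (log2 -0.26 ± 0.23; edgeR adjusted p = 0.568), nor did hom against het (0.80 ± 0.25; adjusted p = 0.0533).

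In HPC het the more abundant receptors changed as in hom or did not pass. Cd84 rose by log2 0.37 ± 0.06 against WT (SE; edgeR adjusted p = 0.000362). Ly9, with 26.0, 32.2 and 32.8 CPM in HPC het, overlapped WT in 1 library and rose by 0.35 ± 0.10 (edgeR adjusted p = 0.0277). The Ly9 call was lost without HPC het replicate 2 or 3 or HPC WT replicate 1 or 3 (adjusted p = 0.109 to 0.14). Cd48, with 211, 190.05 and 215 CPM in HPC het, had a log2 change of 0.19 ± 0.08 (edgeR adjusted p = 0.113). Hom and het were set against the same WT libraries, so their changes are not independent of each other.

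Counted over the family, 4 of 6 tested members were called in HPC hom against WT, 3 higher and 1 lower, beside 9.21% of all genes (4.92% higher and 4.29% lower). In HPC het against WT 5 of 6 were called, 3 higher and 2 lower, beside 16.1% of all genes (9.15% higher and 6.99% lower). In HPC hom against het 2 of 6 were called, Slamf1 higher and Slamf7 lower, beside 9.4% of all genes (3.63% higher and 5.77% lower). The median log2 change of the 6 was 0.27 for hom and 0.27 for het against WT, with medians of 0.00 over all genes tested in both.

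**Figure D2:**
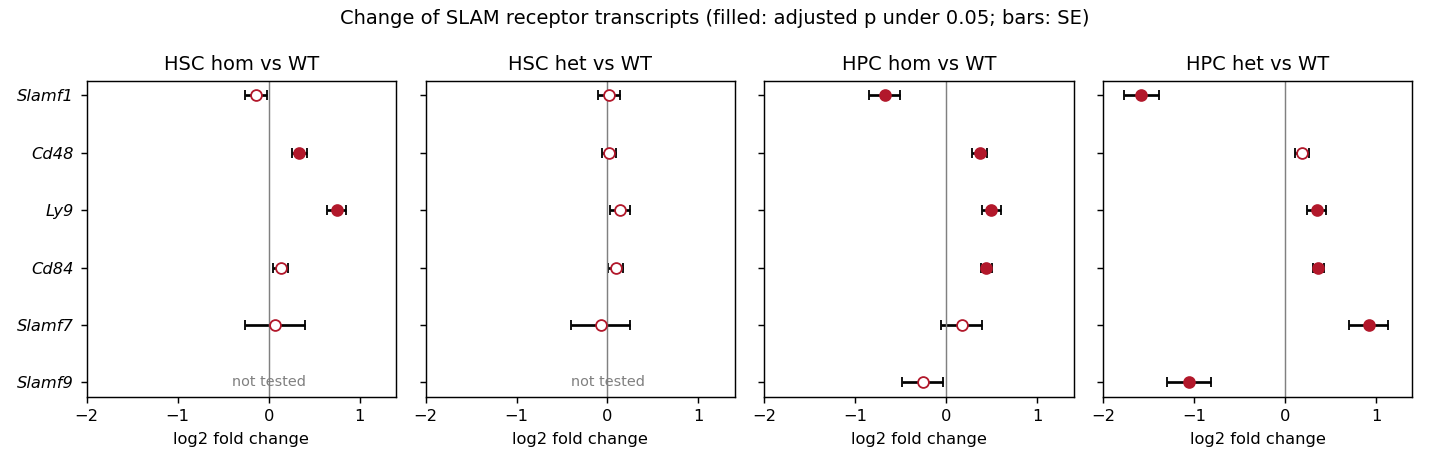
Log2 fold change of the tested SLAM receptors (horizontal axes) in hom and het against WT of each sort; bars are standard errors and filled points have an edgeR adjusted p under 0.05. Slamf1 lies furthest left, at -1.58 in HPC het, and Ly9 is filled in HSC hom (0.75), HPC hom (0.50) and HPC het (0.35).

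Markers of mature myeloid cells moved with the genotype in HPC. Over all genes tested in HPC, 4.92% were called higher and 4.29% lower in hom against WT. In het against WT these shares were 9.15% and 6.99%. Summed over 10 monocyte and macrophage markers, HPC hom held 648 to 740 CPM, HPC het 647 to 667 CPM and HPC WT 361 to 390 CPM. Of 9 tested, 8 were called higher in hom and 8 in het, and C1qa, a gene of resident macrophages, was at 0 counts in all groups. Summed neutrophil markers stood at 2672 to 2860 CPM in HPC hom, 2037 to 2459 CPM in HPC het and 1631 to 1728 CPM in HPC WT, with 7 of 9 tested called higher in hom and 4 in het. The late granulocyte gene Ly6g was at 0 counts in HPC hom and HPC WT. Summed dendritic cell markers were 29.2 to 34.8 CPM in HPC hom, 53.7 to 76.8 CPM in HPC het and 49.3 to 52.9 CPM in HPC WT. Of 8 tested, 5 were called lower in hom and 3 higher in het, with none the other way. The 8 B and plasma cell markers summed to 14.2 to 16.2 CPM in HPC hom and 12.8 to 15.5 CPM in HPC WT. In HPC het they summed to 17.8 to 21.2 CPM, above both. The 1 marker of that list tested was called higher in het and was not called in hom. The T and NK cell markers had 1 of 4 tested called higher in hom, and 1 higher and 1 lower in het, with sums of 84.9 to 91.5 CPM in HPC hom, 76.7 to 85.2 CPM in HPC het and 90.95 to 98.1 CPM in HPC WT. Mast cell and basophil markers summed to 337 to 369 CPM in HPC hom, 266 to 286 CPM in HPC het and 329 to 378 CPM in HPC WT, with 4 higher and 2 lower of 7 tested in hom and 2 higher and 2 lower in het. Erythroid markers had 2 higher and 1 lower of 7 tested in hom and 2 lower in het. Summed megakaryocyte markers, a lineage in which CD150 is also found, were 946 to 1204 CPM in HPC hom, 892 to 1083 CPM in HPC het and 1193 to 1262 CPM in HPC WT. Of 10 tested, 2 were called lower in hom and 3 in het, with none higher. The part of these marker genes in the changes of the SLAM receptors was not tested. In bulk RNA, fewer cells of a type and less transcript per cell cannot be told apart.

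The difference between the sorts in the genotype effect was tested directly. For the het effect, Slamf1 was called, with a log2 change in HSC minus that in HPC of 1.59 ± 0.23 (SE; edgeR adjusted p = 0.000472; 0.000653 to 0.00325 with 1 library left out), het against WT being 0.02 ± 0.12 in HSC and -1.58 ± 0.19 in HPC. It was the 1 member called of 6 tested, of which Slamf9 entered this fit through its HPC libraries alone (4 to 16 counts per HSC library), beside 1.94% of all genes (0.804% higher and 1.14% lower). Slamf1 was read on opposite sides of the CD150 gate in the 2 sorts. For the hom effect none of the same 6 was called by edgeR (2.79% of all genes were, 1.06% higher and 1.73% lower; 2747 had an unadjusted p under 0.05). Slamf1 had a difference of 0.52 ± 0.22 (edgeR adjusted p = 0.21), Ly9 of 0.23 ± 0.15 (adjusted p = 0.46) and Cd48 of -0.05 ± 0.12 (adjusted p = 0.877). Cd84 had -0.33 ± 0.10 (edgeR adjusted p = 0.074), which DESeq2 called (adjusted p = 0.0412), as did edgeR without HSC hom replicate 3 (adjusted p = 0.0396). For Slamf1 and Cd84 in hom and for Ly9, Cd84 and Slamf7 in het, a call in HPC and none in HSC is thus not shown to be a difference between the sorts by edgeR.

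The ratio of Cd48 to Slamf1, the pair that in fresh marrow divides progenitors from stem cells, was higher in HPC than in HSC. CD150 was sorted on and the sorts differed in donor sex, so gate and sex cannot be told apart in that difference. The ratio was also above WT in HSC hom, HPC hom and HPC het, while HSC het overlapped HSC WT. Per kilobase, Cd48 exceeded Slamf1 by 25.3 ± 3.86 times in HSC hom, 17.9 ± 0.70 times in HSC het and 17.9 ± 0.97 times in HSC WT (SD, n = 3). In HPC the ratio was 78.2 ± 31.0 in hom, 123 ± 23.9 in het and 36.3 ± 8.03 in WT. HSC hom libraries (21.4 to 29.1) lay above HSC WT (17.2 to 19.0), and HPC hom (58.0 to 114) and HPC het (95.2 to 139) above HPC WT (27.0 to 41.1). These are descriptions of transcript levels, and surface protein was not measured here.

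**Figure D3:**
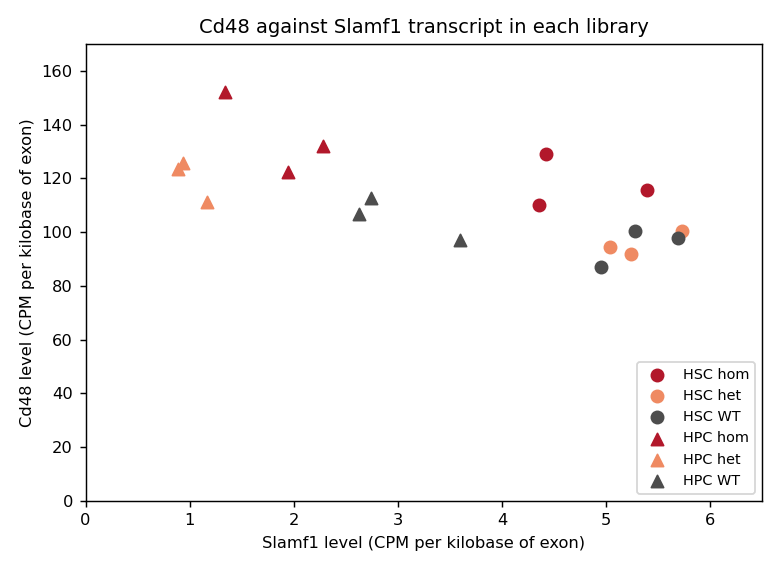
Level of Cd48 (vertical axis) against Slamf1 (horizontal axis), both in CPM per kilobase of exon from 0, in the 18 libraries; circles are HSC and triangles HPC. HPC hom and HPC het sit to the left of HPC WT, with Slamf1 at 1.34 to 2.28 in hom, 0.890 to 1.17 in het and 2.62 to 3.59 in WT, while the HSC libraries lie between 4.36 and 5.73.

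All 8 genes lie on chromosome 1 within 1002.3 kb (mm10 annotation of the count tables, exon spans). Ly9 (chr1:171588613-171607410, minus strand), Slamf7 (chr1:171632403-171653037, minus), Cd48 (chr1:171681245-171705258, plus), Slamf1 (chr1:171767131-171801184, plus), Cd84 (chr1:171839697-171890718, plus) and Slamf6 (chr1:171917458-171948958, plus) form a run of 360.3 kb. Slamf9 (chr1:172458569-172478421, plus) and Slamf8 (chr1:172581377-172590873, minus) follow after 509.6 kb. Neighbours in the run moved in different directions: in HPC hom, Cd48 and Cd84 rose on either side of Slamf1, which fell. Exons of other genes covered 1.88% of Cd84 exons, those of Gm51686, and none of the other members' exons.

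The window from 100 kb before Ly9 to 100 kb after Slamf8 held 45 other genes. Of the 21 tested in HSC, none was called in hom against WT, beside 2.01% of all genes. Their smallest edgeR adjusted p was that of Gm52945 (0.161). Of the 19 tested in HPC, 1 rose and 1 fell in hom against WT, or 10.5% of the 19 beside 9.21% of all genes. These were the predicted gene Gm52945, between Cd84 and Slamf6 (log2 0.54 ± 0.14, SE; edgeR adjusted p = 0.0183), and Cd244a. In HPC het the genes called were Ncstn, named after its values were seen, which encodes a subunit of gamma-secretase (log2 0.19 ± 0.06; edgeR adjusted p = 0.0276), and Cd244a, again 10.5% of the 19, beside 16.1% of all genes. The median log2 change of the 19 was -0.02 in hom and -0.02 in het.

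**Figure D4:**
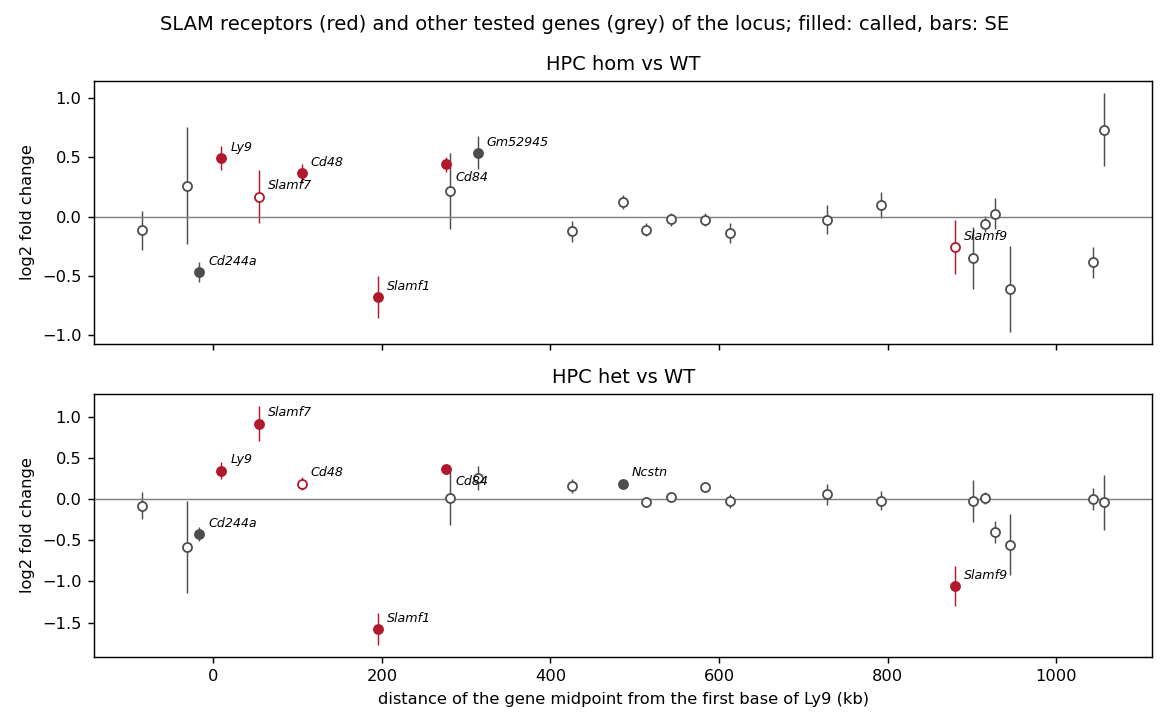
Log2 fold change in HPC hom and HPC het against WT (vertical axes) of the tested genes of the locus, by distance of the gene midpoint from the first base of Ly9 in kb. The chosen SLAM receptors are red and all other genes grey, Cd244a among the grey. Filled points were called, and bars are standard errors. Slamf1 lies below Cd48 and Cd84, its neighbours, in both panels, and 2 of the 19 grey points are filled in each panel.

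Cd244a, which lies beside Ly9 and encodes CD244, a SLAM receptor and the partner of CD48, was followed as a signalling partner. It had 44.0, 40.6 and 47.5 CPM in HPC hom, 47.3, 44.8 and 43.9 CPM in HPC het and 53.7, 65.2 and 64.0 CPM in HPC WT, with all hom and het libraries below WT. It fell by log2 -0.46 ± 0.08 in hom (SE; edgeR adjusted p = 0.00104) and by -0.43 ± 0.08 in het (edgeR adjusted p = 0.00157), so that Cd48 and its partner moved in opposite directions in HPC hom. In HSC, Cd244a had 25.2, 33.3 and 34.4 CPM in hom and 33.5, 32.5 and 33.4 CPM in WT, and did not pass (log2 -0.07 ± 0.12; edgeR adjusted p = 0.805). Cd2, the other partner of CD48, had 28 counts over all libraries, of which 0 fell in HSC hom, 3 in HSC het and 0 in HSC WT, and 0 in HPC hom, 13 in HPC het and 12 in HPC WT.

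Of the adaptors that SLAM tails bind, Sh2d1b1 (EAT-2) was counted in every HPC library. Sh2d1a (SAP) and Sh2d1b2 (ERT, a relative of EAT-2) are listed at 0 counts in all 18 libraries, as Ly6a is. Sh2d1b1 had 28 to 33 counts per library in HPC hom, 26 to 41 in the het libraries and 26 to 34 in the WT ones, and 0 to 6 in HSC. Per kilobase it averaged 0.647 CPM in HPC hom, 0.739 CPM in HPC het and 0.599 CPM in HPC WT. It did not pass in HPC hom (log2 0.11 ± 0.26, SE; edgeR adjusted p = 0.858). Lck, a Src-family kinase of T cells, fell in HPC hom, with 6.96, 8.86 and 6.79 CPM in hom and 13.9, 12.8 and 11.9 CPM in WT (log2 -0.76 ± 0.13; edgeR adjusted p = 0.000466). It also fell in HPC het, at 6.51, 7.25 and 7.62 CPM (log2 -0.84 ± 0.13; edgeR adjusted p = 0.000151). Lck has a second annotated copy on an alternate contig, so its level is uncertain.

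Of the list of 22 signalling partners, 19 were tested in HPC. In hom against WT none rose, 2 fell (Cd244a and Lck) and 17 did not pass, with a median log2 change of -0.09. That is 10.5% of the 19, beside 9.21% of all genes called. In het against WT 3 rose and 4 fell, or 36.8% of the 19, beside 16.1% of all genes. Besides Cd244a and Lck these were, named after their values were seen, the kinase gene Lyn (log2 0.23), the inositol phosphatase gene Inpp5d (0.21) and Uvrag (0.22) among those that rose, and Fyn (-0.28) and the phosphatase gene Ptpn11 (-0.23) among those that fell. With 1 library left out at a time, the calls of Lyn, Inpp5d and Uvrag were each lost 3 times of 6, and that of Fyn 2 times. In HSC none of 18 tested partners was called in hom or het against WT, beside 2.01% and 0.0334% of all genes. With shares so low, the absence of calls says little about the partners.

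Genes outside the family whose levels ran most like those of Slamf1 and Cd48 were found over the 18 libraries, as a description. For Slamf1 these were Shroom4 (Pearson r = 0.97), Septin8 (r = 0.97) and Grb10 (r = 0.96), among 10115 genes. Grb10, an adaptor of growth factor receptors, averaged 101 CPM in HSC hom, 117 in HSC het and 119.8 in HSC WT. In HPC it averaged 55.4 CPM in hom, 30.7 in het and 65.2 in WT. It was picked for running like Slamf1, so a lowest level in HPC het is no separate support for that of Slamf1. Within the 9 HPC libraries the 3 genes had r = 0.94, 0.93 and 0.90 with Slamf1, and within the 9 HSC libraries r = 0.40, -0.01 and 0.32. For Cd48 they were Gnptab (r = 0.84), Ptgir, the prostacyclin receptor (r = 0.83), and Cotl1, an actin-binding protein (r = 0.83). The points share libraries and depth, and the 2 sorts and 6 groups account for part of any such r.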

How the data were processed

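Polyadenylated RNA of 18 libraries (6 groups of 3) was analysed; the 2 CUT&Tag samples were not. The authors deposited raw counts of read pairs per gene, 1 table per cell sort, made per the file headers with featureCounts 2.0.6, unstranded, from the exons of each gene in an mm10 RefSeq annotation. Per the submitters' processing notes reads were trimmed with Trim Galore 0.6.10 and aligned with STAR 2.7.11a; the notes name mm39. Coordinates are those of the tables (mm10). Unstranded counts cannot separate a gene from an antisense partner.

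The test was edgeR 4.0.16 (R 4.3.3), quasi-likelihood F, robust, with TMM factors, filterByExpr and p-values adjusted by Benjamini-Hochberg (14959 genes tested in HSC, 13855 in HPC, 15431 over 18 libraries). Called means an adjusted p under 0.05. One fit per sort of 9 libraries gave the genotype comparisons; a fit of 18 libraries gave differences between sorts and the TMM factors behind all CPM printed. Procedures were checked on simulated data. Members, lists and tests were chosen with earlier results of these data known. Named genes are the members, Runx2, sort markers, receptors and adaptors of the partner list, partners and locus genes called in hom against WT, and the 3 genes most correlated with Slamf1 or Cd48 (log2 CPM, prior count 2, at least 5 CPM, no predicted genes); others are said to be named after their values were seen. No 2 libraries of a group were duplicates. Replicate numbers were not shown to pair libraries: deviations from group means correlated between same-numbered libraries by -0.13 to 0.14 in HSC and -0.11 to 0.23 in HPC. With 3 libraries per group this cannot exclude a pairing. Alternatives were DESeq2 1.42.0, RLE factors, no filter, only the 2 groups compared, a replicate block, and leaving out each library. Counting floors cover counting error only.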

Additional observations from a re-analysis of the deposited data

Results flagged for a closer look

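The het effect on Slamf1 differed between the sorts by a test of the difference itself: the log2 change of het against WT in HSC minus that in HPC was 1.59 ± 0.23 (SE; edgeR adjusted p = 0.000472), the change being 0.02 in HSC and -1.58 in HPC. All 3 HPC het libraries lay below all 3 HPC WT libraries, and the HSC het and HSC WT libraries overlapped. Slamf1 encodes the sort marker CD150 and was read on opposite sides of that gate in the 2 sorts. The sorts also differed in donor sex. An effect of genotype particular to 1 sort cannot be told apart here from these differences. The het effect on Lck differed in the same direction, by 0.72 ± 0.19 (edgeR adjusted p = 0.0474), which no longer passed in 11 of 12 refits without 1 library.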

How the results depend on the processing

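Of the comparisons of single SLAM receptors, no called value changed sign under any alternative. Among those that left out no library, 230 of 238 kept their side of the threshold, 2 were lost and 6 gained. Among those that left out 1 library, 352 of 372 kept it, 16 were lost and 4 gained. The number of members called in HSC hom against WT, 2 in the fit reported, was 1 with a replicate block and 1 with only the 2 groups in the fit, Cd48 being the call lost (adjusted p = 0.0609 and 0.0776), and 1 to 2 with 1 library left out. In HSC hom against het it was 0, but 2 with DESeq2, 2 without the filter on low counts and 0 to 2 with 1 library left out. In HPC hom against het it was 2, and 1 to 3 with 1 library left out. For the difference of the hom effect between sorts it was 0, but 1 with DESeq2 and 0 to 1 with 1 library left out. The cause was not tested. The replicate block changed no other member call, and replicate numbers were not shown to pair libraries (3 of 9 HSC and 5 of 9 HPC libraries correlated best with their own number). Over all genes the count called moved from 300 in HSC hom against WT to 48 to 898 across alternatives, from 5 to between 2 and 399 in HSC het, from 2 to between 1 and 511 in HSC hom against het, and from 1303 to between 701 and 1676 in HPC hom against het. It moved from 431 to between 149 and 941 for the hom effect between sorts and from 300 to between 138 and 592 for the het effect, so the percentages of all genes called given beside the members move likewise. Slamf6, Slamf8 and, in HSC, Slamf9 had too few counts for a test.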
